A study of Homo sapiens with 4 samples.

Results

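The genes of the unfolded protein response and of the transcription factor ATF4 were described in H1 cells treated with the ERK5 inhibitor XMD892. The set was chosen by symbol, leaving out genes of serine metabolism and amino acid transport, and all 33 of its genes were found among the 19775 genes of the table. H1 is an established human embryonic stem cell line, labelled as wild type, and it was grown in E8, a defined medium with insulin, FGF2 and TGFβ. Both libraries analysed here came from cells kept for 12 h in E8 with 1 µM XMD892, and they are called replicate 1 and replicate 2. The labels also name 2 samples in E8 alone, which were not analysed here, because the names of the remaining 7 columns of values did not match the labels. The values below are therefore levels in treated cells and gaps between 2 treated libraries, and none of them is an effect of the compound.

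Proteins that enter the secretory pathway fold in the endoplasmic reticulum (ER), where chaperones and disulfide isomerases assist them. When unfolded proteins build up there, the kinase PERK (EIF2AK3), the kinase and endoribonuclease IRE1α (ERN1) and the membrane-bound factor ATF6 start the unfolded protein response. ATF6 and spliced XBP1 raise transcription of chaperones and of genes for ER-associated degradation (ERAD), the disposal of misfolded ER proteins. PERK phosphorylates the initiation factor eIF2α, which lowers translation in general and favours that of ATF4. Other eIF2α kinases answer to amino acid shortage, heme shortage or double-stranded RNA, so ATF4 and its targets also respond to signals from outside the ER.

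The depth was 18528689 reads in replicate 1 and 20217648 in replicate 2. Levels are RPKM, reads scaled by merged exon length and by the depth of the library, and each mean is given ± SD over the 2 libraries. Separate cultures are not stated in the labels, and this spread may be technical. A gap is the difference in log2(normalized count + 1), replicate 2 minus replicate 1, and its bracketed 95% interval is an exact binomial (Clopper-Pearson) interval on the reads, which covers counting error only. Normalized counts keep the scale of the deposited values and RPKM uses total reads, so small gaps can differ in sign between them. With 1 library on each side there is no test of a gap and no p-value. Each of the 10 pluripotent cell markers exceeded 1 RPKM in replicates 1 and 2, where the list had a median of 154 and 103 RPKM and summed to 2429 and 2708 RPKM. The sum was higher in replicate 2 through POU5F1, at 734 and 1429.9 RPKM, while 6 of the 10 were higher in replicate 1. The mesenchymal markers had medians of 6.93 and 2.42 RPKM and sums of 129.6 and 79.8 RPKM over the 8 of 12 that were listed. THY1, which pluripotent cells also carry, went the other way, at 33.7 and 64.2 RPKM. COL3A1, POSTN, LUM and DCN were not listed, and ACTA2 had 4 and 8 reads. In RNA from whole cultures, fewer cells of a type and less RNA per cell cannot be told apart.

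The chaperones and folding enzymes of the ER lumen were the most abundant genes of the set. Their median was 111 RPKM over 11 genes, against 7.44 RPKM over all 33 genes and 2.31 RPKM over all genes with a length. In all, 30 of the 33 genes reached 1 RPKM in both libraries, where 59.5% of the genes with a length did. The exceptions were DDIT3, VLDLR and ERN1, and with the longest transcript as gene length all 33 reached it. The 11 folding genes took 0.542% of the reads in replicate 1 and 0.484% in replicate 2, and the whole set took 0.653% and 0.587%.

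**Figure D1:**
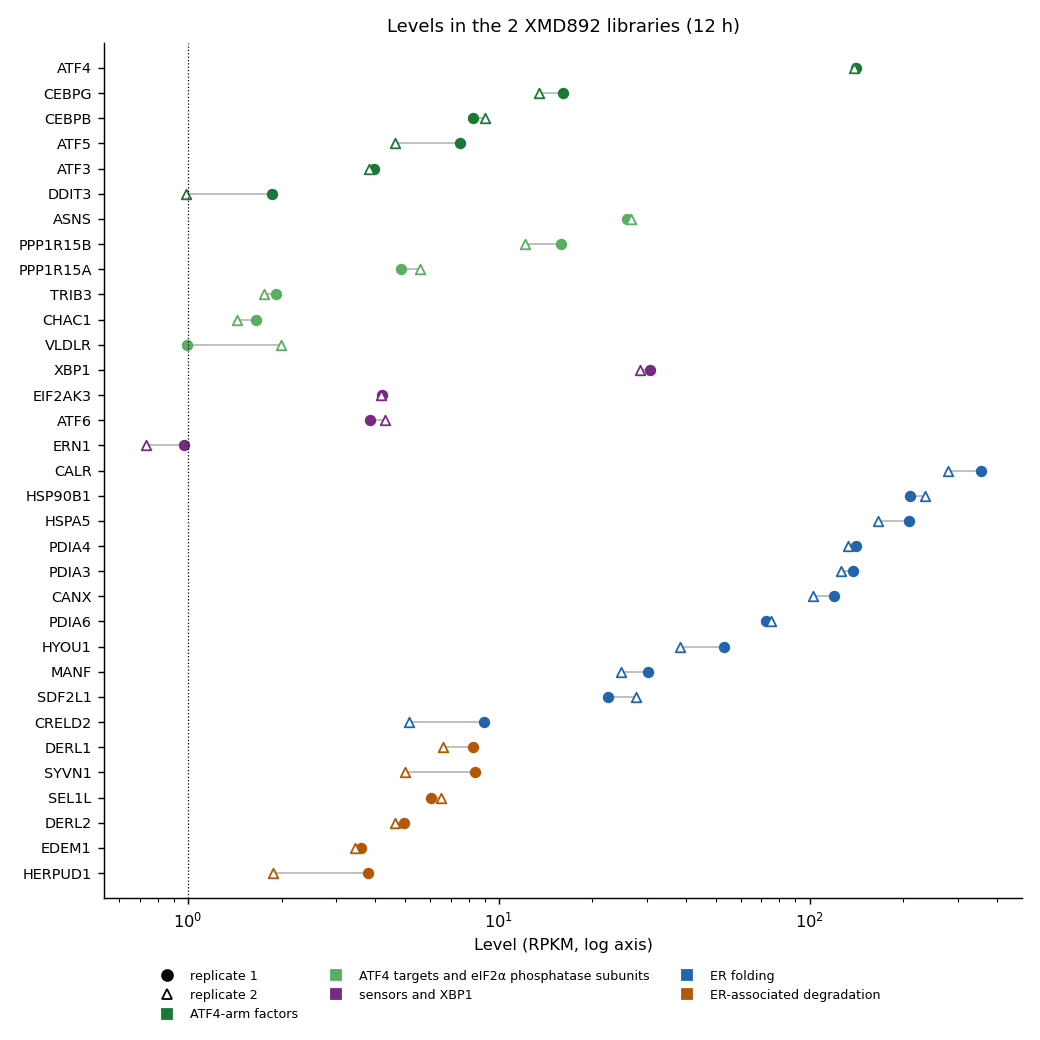
Levels of the 33 genes in RPKM on a log axis, with filled circles for replicate 1, open triangles for replicate 2 and a grey line joining the pair. Genes are grouped by role, and the dotted line marks 1 RPKM. CALR is the highest at 355 and 278 RPKM, and ERN1 is the lowest at 0.974 and 0.733 RPKM.

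CALR (calreticulin), a calcium-binding lectin chaperone, stood at 355 RPKM in replicate 1 and 278 in replicate 2, which placed its mean of 317 ± 54.6 RPKM (SD, n = 2) at rank 91 of 19283 genes. HSP90B1 (GRP94), the HSP90 of the ER, stood at 211 and 234 RPKM. HSPA5 (BiP), the HSP70 chaperone that also holds the stress sensors inactive, stood at 209.6 and 166 RPKM. CALR exceeded the other two in both libraries, whereas HSP90B1 and HSPA5 were nearly level in replicate 1. HSPA5 lies on chromosome 9 at chr9:125234853-125241330 on the minus strand (GRCh38), and CALR lies at chr19:12938578-12944489 on the plus strand.

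Next came the disulfide isomerases and the membrane lectin chaperone. PDIA4 stood at 141 and 133 RPKM, and PDIA3, which pairs with the lectin chaperones, at 138 and 126 RPKM. CANX (calnexin) stood at 119.8 and 103 RPKM. The values of PDIA4 and PDIA3 overlapped between libraries, and CANX was below both in each library on merged exon length. On the length of the longest transcript CANX was above both in each library, at 175.4 and 150.6 RPKM. PDIA4 then stood at 159.4 and 150.4 RPKM and PDIA3 at 157.2 and 143.5 RPKM, so the place of CANX is not resolved. PDIA6 followed at 72.6 and 74.9 RPKM, and HYOU1 (GRP170), a nucleotide exchange factor for BiP, at 53.1 and 38.3 RPKM. MANF, a secreted ER factor that binds BiP, stood at 30.3 and 24.8 RPKM, and SDF2L1, which works with BiP and its co-chaperones, at 22.5 and 27.6 RPKM. The ranges of MANF and SDF2L1 overlapped. CRELD2, an ER protein that ER stress induces, was the lowest of the group at 8.99 and 5.15 RPKM. Reads of PDIA3 can be shared with its copies PDIA3P1 and PDIA3P2, both of which were listed.

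The length chosen for a gene moved some of these levels. With the longest transcript in place of merged exons, 9 of the 33 genes moved by over 1.5 times. HSP90B1 stood at 345 RPKM, PDIA6 at 113, HYOU1 at 77.6, MANF at 43.5 and CRELD2 at 13.9 RPKM on that length. Outside the folding group, ASNS stood at 49.5, ATF3 at 7.50, DERL2 at 7.28 and HERPUD1 at 4.97 RPKM. Comparisons between genes in RPKM are approximate for this reason, and comparisons of a gene between libraries do not depend on its length.

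Many of the folding genes carry an ER stress response element (ERSE) before their start, the site to which ATF6 binds together with the factor NF-Y. The 250 bases before each annotated start were searched on both strands in RefSeq promoter sequence of GRCh38.p14, in which 31 of the 33 genes had an entry; PDIA3 and DERL1 had none. The ERSE was searched as CCAAT, 9 bases of any kind and CCACG, and the shorter ERSE-II as ATTGG, 1 base of any kind and CCACG. At least 1 exact match to either was found in 10 of the 31 genes (32.3%), and in 43 of all 27305 genes with an entry (0.157%). The set was chosen as genes of this response, so its higher share is a description and no independent test. The matches are shown 5′ to 3′ in the direction of the motif, to compare the fixed letters, in capitals, with the spacer, in lower case.
HSPA5: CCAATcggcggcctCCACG
HSP90B1, distal: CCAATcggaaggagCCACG
HSP90B1, proximal: CCAATcgcgccgcaCCACG
CALR: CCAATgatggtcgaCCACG
CANX: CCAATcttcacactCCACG
PDIA6: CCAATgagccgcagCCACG
CRELD2: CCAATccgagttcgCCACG
XBP1: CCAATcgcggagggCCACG
HYOU1, both matches: ATTGGaCCACG
SDF2L1: ATTGGtCCACG
HERPUD1: ATTGGgCCACG
The ERSE matches of CALR and CRELD2, the proximal match of HSP90B1 and the ERSE-II matches of HYOU1 and SDF2L1 lie on the strand opposite to the gene. For CANX, PDIA6 and, in the next search, CEBPG, the annotation also has a start farther upstream of the one used. The matches of HSP90B1, CANX and, in the next search, ASNS and CHAC1 lie within annotated exons of those genes in GENCODE release 29. The spacers differ between genes, and those of HSPA5 and of the distal match of HSP90B1 both begin with cgg.

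The promoters of HSPA5 and HYOU1 are shown in full, since neither stretch overlaps an annotated exon of GENCODE release 29. HSPA5 holds 1 exact match to the ERSE and HYOU1 holds 2 to the ERSE-II, and inexact matches were not searched. In HSPA5 the match begins 66 bases before the start, on the gene's own strand. In HYOU1 the matches begin 185 and 79 bases before the start. The distal one overlaps a match to TGACGTGG, an XBP1-binding element called UPRE, which was found in 1 of 31 genes of the set and in 0.78% of all genes with an entry. Sequences run 5′ to 3′ on the gene's strand, with the fixed letters of each match in capitals.
HSPA5, chr9:125241344-125241593, minus strand: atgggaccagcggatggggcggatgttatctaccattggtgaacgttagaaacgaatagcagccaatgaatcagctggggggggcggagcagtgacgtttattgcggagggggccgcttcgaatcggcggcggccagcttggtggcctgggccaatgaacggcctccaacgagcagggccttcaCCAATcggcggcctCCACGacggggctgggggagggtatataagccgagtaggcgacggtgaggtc
HYOU1, chr11:119057206-119057455, minus strand: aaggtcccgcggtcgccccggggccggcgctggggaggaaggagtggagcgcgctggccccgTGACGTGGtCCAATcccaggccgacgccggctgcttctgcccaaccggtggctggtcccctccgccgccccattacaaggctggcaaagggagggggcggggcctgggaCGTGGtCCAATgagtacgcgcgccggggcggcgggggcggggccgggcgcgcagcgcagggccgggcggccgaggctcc
An exact match is a description of these letters, and its absence from a window says nothing about the binding of a factor elsewhere. The 10 genes with an ERSE or ERSE-II had a median of 59.7 RPKM, from 2.84 for HERPUD1 to 317 for CALR, and the 21 genes with an entry and no match had a median of 5.22 RPKM. Most of the 10 are folding genes, so this contrast is not separate from that by role. PDIA4, at 137 RPKM, and MANF, at 27.5 RPKM, had no exact match.

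**Figure D2:**
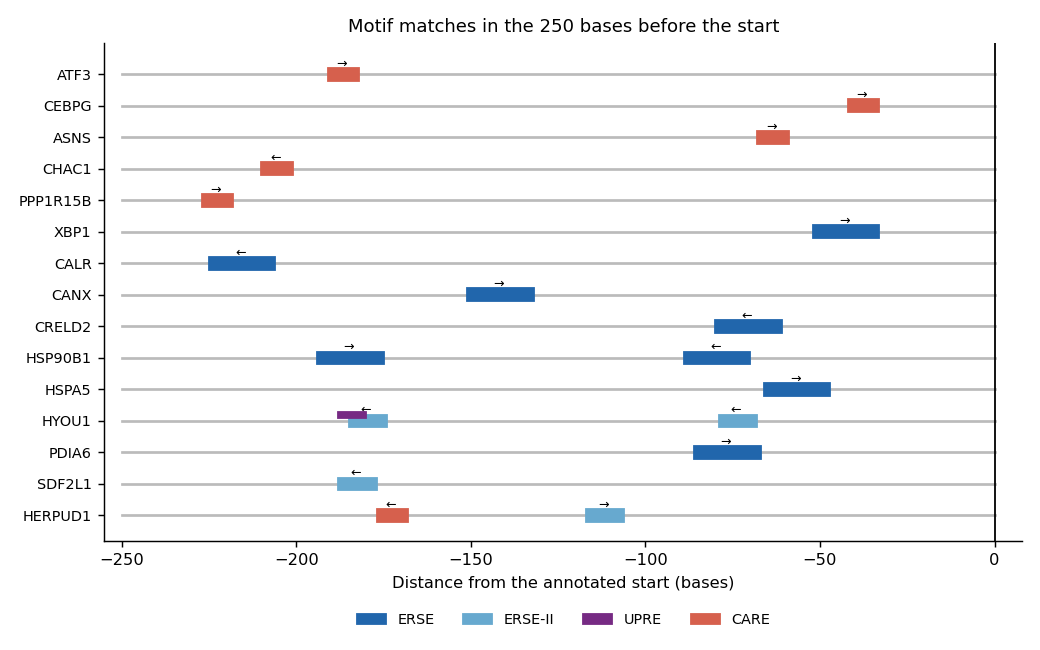
Positions of motif matches in the 250 bases before the annotated start of the 15 genes that had any, with distance from the start in bases on the x axis and arrows for the strand of the match. Blue boxes are ERSE and ERSE-II, purple the UPRE and red the C/EBP-ATF element. HSPA5, CRELD2, PDIA6 and XBP1 hold their exact ERSE match within 100 bases of the start, and CALR and CANX farther away.

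The ERAD genes stood at a fraction of the folding genes' level, with a median of 5.55 RPKM over 6 genes and a range from 2.84 to 7.44 RPKM. DERL1, a channel subunit of the retrotranslocation complex, stood at 8.27 and 6.60 RPKM. SEL1L, the adaptor of the ubiquitin ligase SYVN1 (HRD1), stood at 6.06 and 6.52 RPKM, and SYVN1 itself at 8.38 and 4.99 RPKM. DERL1 was above SEL1L in both libraries, and the range of SYVN1 held both values of SEL1L, so the order of SYVN1 is not resolved. DERL2 stood at 4.95 and 4.65 RPKM and EDEM1, which trims mannose from misfolded glycoproteins, at 3.59 and 3.44 RPKM. HERPUD1, a scaffold of the ligase complex, stood at 3.80 and 1.88 RPKM. SYVN1 shares 398 exonic bases with FAU on its own strand and 356 with MRPL49 on the other, and reads there cannot be assigned without the counting rule, which is not given in the sources used here.

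The sensors stood below each folding gene of the set in both libraries. In the mean, ATF6 and EIF2AK3 were above the median of all genes with a length, 2.31 RPKM, and ERN1 was below it. ATF6 stood at 3.86 and 4.29 RPKM and EIF2AK3 (PERK) at 4.21 and 4.19 RPKM. ERN1 (IRE1α) was lower than both in each library, at 0.974 and 0.733 RPKM on 196 and 161 reads. XBP1, whose mRNA IRE1α splices, stood at 30.8 and 28.5 RPKM. Counts per gene do not separate spliced from unspliced XBP1, and reads can be shared with its copy XBP1P1. Of the other eIF2α kinases, from the list of further signalling genes, EIF2AK1 (HRI) stood at 21.6 ± 0.64 RPKM (SD, n = 2), EIF2AK4 (GCN2) at 16.1 ± 1.05 and EIF2AK2 (PKR) at 6.17 ± 1.61 RPKM. EIF2AK3 was thus the lowest of the 4 eIF2α kinase genes in these libraries.

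ATF4 was the only gene outside the folding group above 100 RPKM in the mean. It stood at 141 and 139 RPKM on 6590 and 7088 reads and lies at chr22:39519695-39522685 on the plus strand. ATF4 is controlled mainly at translation, so its transcript level is no measure of the protein, and its reads can be shared with the copy ATF4P4. The other factors of the arm were far lower. CEBPG, a dimer partner of ATF4, stood at 16.04 and 13.5 RPKM and CEBPB at 8.28 and 9.03 RPKM. ATF5, a relative of ATF4, stood at 7.49 and 4.62 RPKM, and ATF3, an inducible stress factor, at 3.98 and 3.83 RPKM. DDIT3 (CHOP), which promotes death under prolonged ER stress, had 45 and 26 reads, or 1.86 and 0.984 RPKM. DDIT3 shares 355 exonic bases with MARS on the opposite strand, which had 4569 and 3727 reads. It also shares 58 with MBD6 on that strand, at 512 and 268 reads, and 105 with AC022506.1 on its own strand, which was not listed. ATF5 shares 626 with NUP62 on the opposite strand, at 1667 and 1664 reads. Whether the counting used strand is not given in the sources used here.

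Among targets of ATF4 in the set, ASNS was the highest. In the mean, TRIB3, CHAC1 and VLDLR were below the median of all genes with a length, 2.31 RPKM. ASNS (asparagine synthetase) stood at 25.8 and 26.6 RPKM and lies at chr7:97852118-97872542 on the minus strand. It shares 1985 exonic bases with AC079781.5 on its own strand, and how reads there were counted is not given in the sources used here. TRIB3, a pseudokinase that restrains ATF4 and AKT, stood at 1.92 and 1.76 RPKM on 122 reads in each library. CHAC1, which degrades glutathione, stood at 1.65 and 1.44 RPKM on 63 and 60 reads. VLDLR, a lipoprotein receptor, stood at 0.994 and 1.99 RPKM. The 2 regulatory subunits that direct phosphatase 1 to eIF2α differed in level. Constitutive PPP1R15B (CReP) stood at 15.8 and 12.2 RPKM, above inducible PPP1R15A (GADD34) at 4.85 and 5.58 RPKM in both libraries.

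The composite C/EBP-ATF element through which ATF4 acts was searched as TGATGNAAN in the same windows. It was found in 6 of 31 genes (19.4%) and in 1057 of all 27305 genes (3.87%). Here too the set was chosen as genes of the response, so the share is no independent test. Matches in motif direction are listed to compare targets of ATF4 with factors of the arm.
ASNS: TGATGaAAc
CHAC1: TGATGcAAc
CEBPG: TGATGcAAc
PPP1R15B: TGATGcAAc
HERPUD1: TGATGcAAc
ATF3: TGATGgAAg
CHAC1, CEBPG, PPP1R15B and HERPUD1 carried the same 9 letters, and HERPUD1 was the only gene with both an ERSE-II and this element. The match of ASNS begins 68 bases before the start, at chr7:97872468-97872476. The levels of the 6 genes ranged from 1.55 RPKM for CHAC1 to 26.2 for ASNS.

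The 2 treated libraries were close for most of these genes. The gap was under 1.5-fold for 27 of the 33 genes, against 73.4% of the 16148 genes whose normalized count averaged at least 10, a minimum that all 33 passed. A gap of 2-fold or more was seen for 1 of 33 genes, against 10.9% of all genes. That gene, VLDLR, was higher in replicate 2, as were 4.76% of all genes by 2-fold or more, and 0 of the 33 were that much higher in replicate 1, against 6.14%. These calls depend on the scale: with total reads, VLDLR was just under 2-fold, at a gap of 0.995, and HERPUD1 was past it toward replicate 1, at -1.01. The median size of the gap was 0.22 on the log2 scale, against 0.32 over all genes. The set had a median of 751 normalized counts per gene, against 384 over all genes, and low counts widen gaps, so these shares are not matched for depth.

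**Figure D3:**
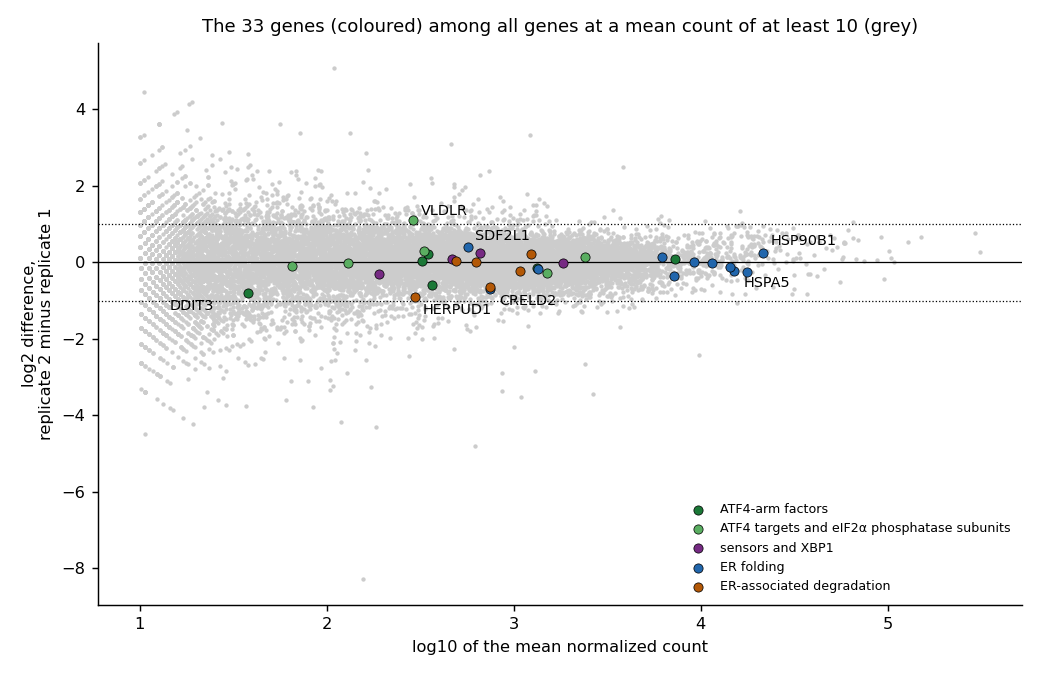
Gap between the libraries (log2, replicate 2 minus replicate 1) against the log10 of the mean normalized count, with the 33 genes coloured by role over 16148 genes in grey. Dotted lines mark 2-fold. VLDLR lies above the upper line, and HERPUD1 and DDIT3 lie closest to the lower one.

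Replicate 2 had the higher normalized count for 15 of the 33 genes and replicate 1 for 18. By the same measure, 52.1% of all genes were higher in replicate 2. The median gap was -0.024 for the set and 0.023 over all genes. With total reads as the scale, as in RPKM, replicate 2 had the higher value for 9 and replicate 1 for 24. The median over all genes then moved to -0.077. For 24 of the 33 genes the counting interval held no equal levels, against 58.1% of all genes. Of these, 10 lay toward replicate 2, against 30.8% of all genes, and 14 toward replicate 1, against 27.3%.

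The targets of ATF6 and XBP1 did not all shift in the same direction between the libraries. HSPA5 had a gap of -0.23 (-0.27 to -0.20), CALR of -0.25 (-0.28 to -0.22) and HYOU1 of -0.37 (-0.42 to -0.32). In the same order, the gaps were -0.47, -0.51 and -0.44 with quantile normalization, and -0.33, -0.35 and -0.47 with total reads as the scale. These 3 chaperones were thus higher in replicate 1. HSP90B1, on 18313 and 22256 reads, had a gap of 0.26 (0.23 to 0.28) toward replicate 2, which turned to -0.065 with quantile normalization. SDF2L1 had a gap of 0.40 (0.22 to 0.58) and PDIA6 of 0.15 (0.09 to 0.20), also toward replicate 2. PDIA4, PDIA3 and XBP1 had gaps of 0.02, -0.03 and -0.01, and their intervals held 0. With total reads as the scale these gaps were -0.08, -0.13 and -0.11, outside those intervals. Of the 10 genes with an ERSE or ERSE-II, replicate 1 had the higher value for 7 and replicate 2 for 3, and gaps ran from -0.91 to 0.40. Of the 21 genes with an entry and no match, replicate 1 had the higher value for 9 and replicate 2 for 12. Over all genes, 52.1% were higher in replicate 2.

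The largest gaps toward replicate 1 were in lower-expressed stress genes. HERPUD1 was 1.88-fold higher there, on 363 against 196 reads, with a gap of -0.91 (-1.17 to -0.66). DDIT3 followed at 1.76-fold, and its interval ran from -1.57 to -0.09 because it rested on 45 and 26 reads. CRELD2 was 1.63-fold, SYVN1 1.56-fold and ATF5 1.51-fold higher in replicate 1. These 5 genes come from 3 of the 5 role groups, while HYOU1, the next largest toward replicate 1, was 1.29-fold higher. Other ERAD genes had small gaps, such as 0.21 (0.09 to 0.33) for SEL1L, 0.04 (-0.15 to 0.23) for EDEM1 and 0.01 (-0.16 to 0.18) for DERL2.

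**Figure D4:**
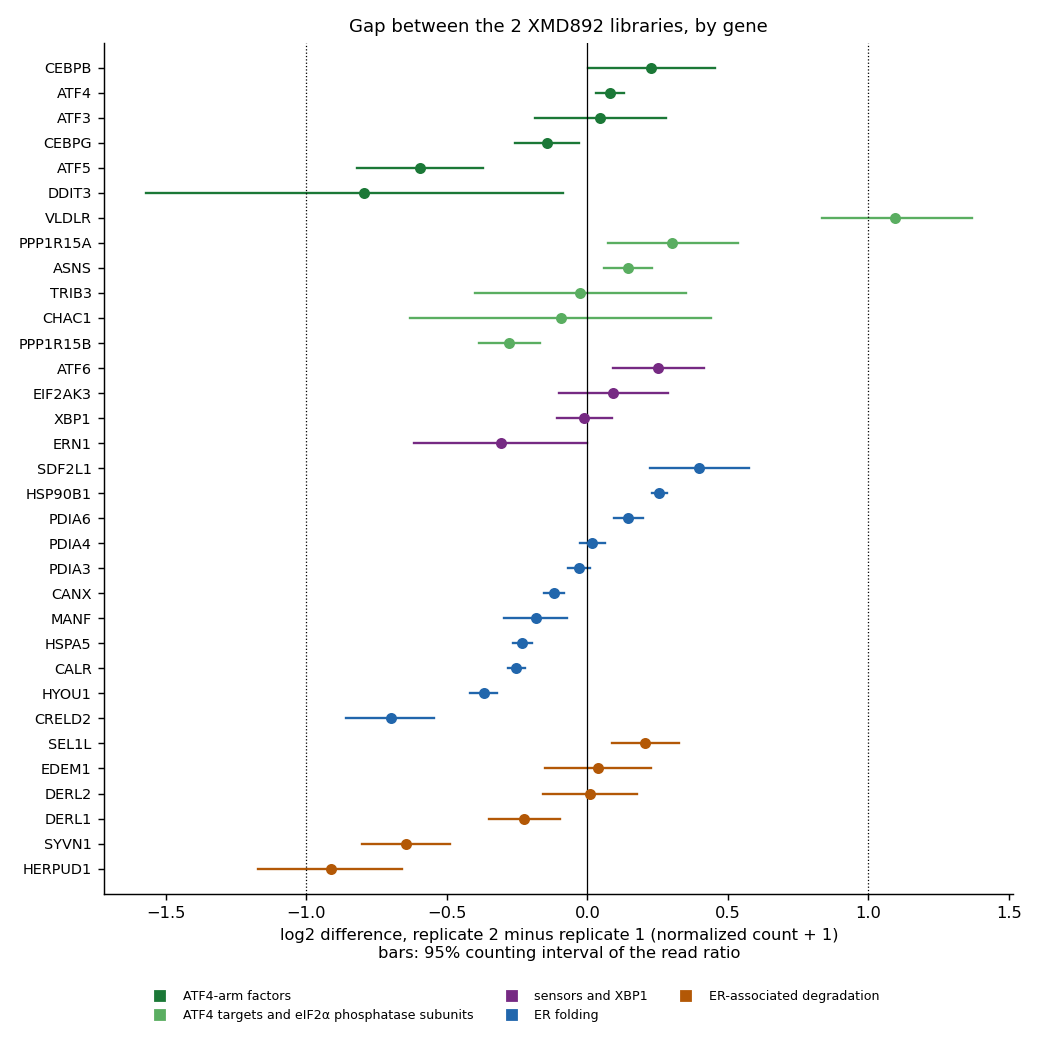
Gap of each gene between the libraries (log2, replicate 2 minus replicate 1; points) with the 95% counting interval of the read ratio (bars), by role. Dotted lines mark 2-fold in each direction. VLDLR is at 1.10 and HERPUD1 at -0.91, and DDIT3 has the widest interval.

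The gaps of ATF4 and ASNS were small, and VLDLR had the largest gap among the ATF4-arm genes of the set. ATF4 had a gap of 0.08 (0.03 to 0.13), which turned to -0.021 with total reads as the scale. ASNS had a gap of 0.15 (0.06 to 0.23), TRIB3 of -0.02 (-0.40 to 0.35) and CHAC1 of -0.09 (-0.63 to 0.44). The intervals of TRIB3 and CHAC1 are wide because of their few reads, and gaps within them were not detectable at this depth. VLDLR was 2.14-fold higher in replicate 2, on 172 and 375 reads, with an interval from 0.84 to 1.37. The phosphatase subunits went in opposite directions, with 0.30 (0.07 to 0.54) for PPP1R15A and -0.28 (-0.39 to -0.17) for PPP1R15B.

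Further genes of the pathway, from 6 lists, stayed between -0.90 and 0.91 with 2 exceptions. Of 104 genes 102 were listed and all of these passed the minimum; 98 reached 1 RPKM in both libraries. Exactly 51 were higher in each library, with a median gap of -0.004, and 2 of the 102 were 2-fold or more apart, against 10.9% of all genes. Both came from the list of other ATF4 targets. DDIT4, an mTORC1 inhibitor that hypoxia also induces, had 90 and 787 reads and a gap of 3.09 (2.79 to 3.43). TXNIP, an inhibitor of thioredoxin that glucose also induces, had 207 and 834 reads and a gap of 1.98 (1.76 to 2.21). The median of that list was -0.02 over 18 genes, with 8 higher in replicate 2. In the list of other folding genes, P4HB, the prototype disulfide isomerase, and PPIB, a prolyl isomerase, were the highest in the mean, at 74.3 and 73.1 RPKM, with PPIB above P4HB in replicate 2. In the same list, CNPY2 had the largest gap at 0.91 (0.59 to 1.25).

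The libraries differed in genes outside the pathway, and those values stand beside the gaps above. Of 14 genes of low oxygen and glycolysis, 11 were higher in replicate 2, against 52.1% of all genes, and 8 were 2-fold or more apart, against 10.9%, 7 of them toward replicate 2. VEGFA, one of the 14, is also on the list of other ATF4 targets. The summed level of the 14 was 899 RPKM in replicate 1 and 1265 in replicate 2. Of the 7 mesenchymal markers that passed the minimum, 6 were higher in replicate 1 and 5 were 2-fold or more apart, 4 of them toward replicate 1, where 6.14% of all genes lay. The part of these differences in the gaps of HERPUD1, DDIT3, VLDLR and DDIT4 was not tested. Because these lists were chosen with earlier results of these data known, their counts are a description and no independent test.

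**Figure D5:**
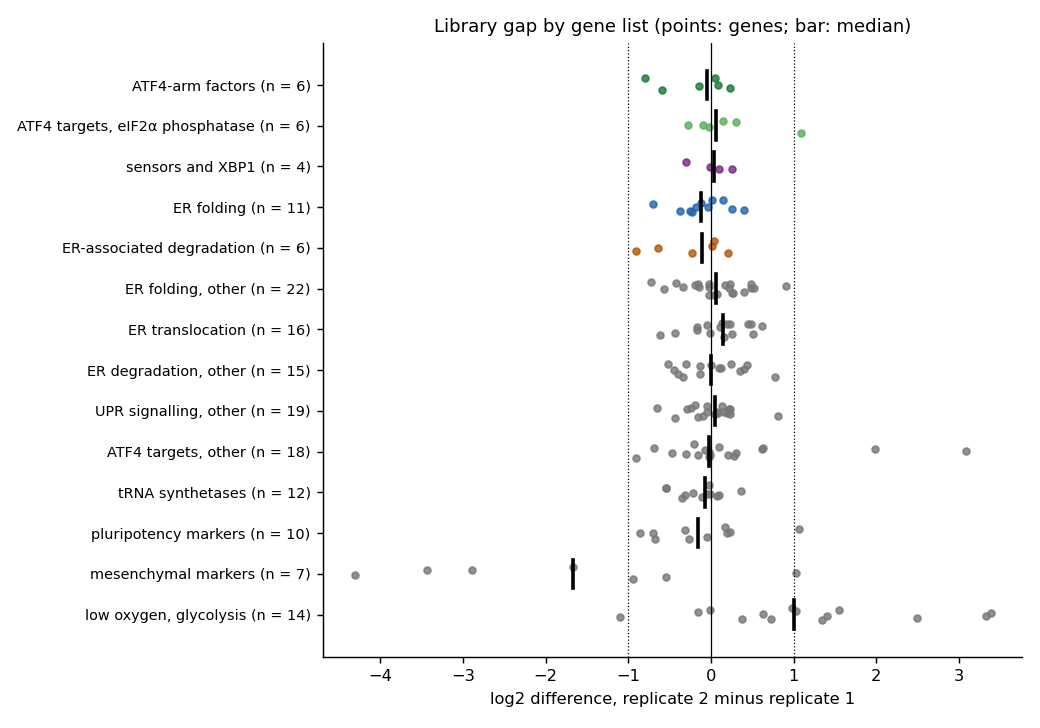
Gap between the libraries (log2, replicate 2 minus replicate 1) for each gene of the 5 role groups (coloured) and of 9 other lists (grey), with a black bar at each median and dotted lines at 2-fold. Medians of the role groups lie between -0.12 and 0.06. The median is -1.67 for the mesenchymal markers and 1.01 for the genes of low oxygen and glycolysis.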

How the data were processed

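Poly(A)-selected RNA was sequenced in paired ends on an Illumina instrument, per the labels' protocols. The deposited signal is size-factor-normalized: the values are read counts per gene over a constant for each library, as shown by the file, where 100% were whole multiples of 1 step per column (within 0.01 reads), giving factors of 0.932 and 0.948. Trimmomatic 0.36, STAR, featureCounts 1.5.3, DESeq2 1.26.0 and hg38 are named, without roles, per the submitters' processing notes. Columns were matched to samples by name, and 7 columns were not used. The planned limma test against E8 was not run.

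Whole reads were recovered, and RPKM was computed with GENCODE release 29 lengths (GRCh38; 19283 symbols with 1 gene ID). The pseudocount was 1 and the minimum mean normalized count 10. Scripts ran in Python 3.11.15 with scipy 1.17.1, and edgeR 4.0.16 in R 4.3.3 gave TMM factors; intervals and read recovery were tested on simulated data. The 33 genes and all lists were chosen with earlier results of these data known. Under the naming rule, all 33 genes are named, with the highest and the most different genes of other lists; the other eIF2α kinases, DDIT3's and ATF5's neighbours and further listed genes were named after their values were seen.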

Additional observations from a re-analysis of the deposited data

How the results depend on the processing

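No paired analysis was possible because the columns matched to samples are all of the treated group, so no test against E8, with or without a replicate block, with edgeR, DESeq2 or limma, was run. With 2 libraries of 1 group, no gap has a replicate check. With the longest transcript as gene length, median levels were 9.55 RPKM in place of 7.44 for the whole set, 8.65 in place of 7.35 for the factors of the ATF4 arm, 4.65 in place of 3.53 for ATF4 targets and phosphatase subunits, 4.60 in place of 4.14 for the sensors with XBP1, 150.4 in place of 111 for folding and 7.44 in place of 5.55 for ERAD. Leaving out each library in turn gave an ERAD median from 4.82 to 5.51 RPKM. The median gap of the folding genes was -0.22 with total reads as the scale and -0.19 with quantile normalization, in place of -0.12. Of gaps whose counting interval excluded 0, ATF4 turned to -0.021 with total reads and HSP90B1 to -0.065 with quantile normalization; the cause was not tested. The gaps of 10 other genes left their counting interval with total reads, and those of 6 other genes with quantile normalization. With edgeR TMM, a pseudocount of 5, no minimum or a minimum of 50, each gap that could be computed stayed within its interval; DDIT3 did not reach the minimum of 50. The number of genes 2-fold apart was 1 under each of these 6 alternatives, but with total reads it was HERPUD1 (-1.01) in place of VLDLR (0.995). The number of genes at 1 RPKM in both libraries was 33 with the longest transcript and 31 with edgeR TMM, in place of 30. Depth limits DDIT3, CHAC1 and TRIB3 most.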

Other observations

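Aminoacyl-tRNA synthetases, several of which are known targets of ATF4, were abundant in the treated cells. The median was 42.3 RPKM over 12 cytoplasmic synthetase genes. Each of the 12 was above 1 RPKM in both libraries, where 59.5% of the genes with a length reached that level. NARS was the highest at 67.2 ± 0.172 RPKM (SD, n = 2), and AARS at 50.6 ± 3.57, IARS at 48.9 ± 4.99 and EPRS at 47.8 ± 2.71 RPKM followed in the mean, in an order that differed between the libraries. Of the 12, 9 were higher in replicate 1, where 52.1% of all genes were higher in replicate 2. The counting interval excluded equal levels for 6 toward replicate 1 and 3 toward replicate 2, against 27.3% and 30.8% of all genes. Of the same 12, 0 were 2-fold or more apart, against 10.9% of all genes. These shares are not matched for depth: with a minimum mean normalized count of 50, 5.64% of all genes were 2-fold or more apart. WARS and YARS had the largest gaps toward replicate 1, both at -0.54, and SARS the largest toward replicate 2 at 0.36.

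The genes of ER translocation, through which secreted proteins enter the ER, had a median of 23.9 RPKM over 16 genes, with the oligosaccharyltransferase subunit OSTC the highest in the mean at 82.2 ± 6.35 RPKM; SEC61A1 was above it in replicate 1 and SEC61B in replicate 2. The 3 subunits of the SEC61 channel did not go together between the libraries. SEC61A1, the pore subunit, had a gap of -0.62 (-0.67 to -0.56) toward replicate 1, whereas the small subunits SEC61B and SEC61G had gaps of 0.48 (0.39 to 0.58) and 0.45 (0.36 to 0.55) toward replicate 2. No replicate stands behind these differences of single libraries.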
